A study of Chlorocebus sabaeus with 4 samples.

Results

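Complement genes were examined in luteal tissue of vervet monkeys. The set was fixed by name and held 33 genes: the starters of the classical and lectin pathways, C3 and the alternative pathway, the terminal components, receptors and regulators. Of these, 32 had at least 1 probe set annotated to that gene alone, among 19775 genes measured in this way, and a gene with several was read from the one that was brightest on average across the 4 samples. VTN, which encodes vitronectin, had only probe sets shared with another gene and got no value. Corpus luteum RNA came from 2 adult female Chlorocebus sabaeus, each 16 years old. Monkey 1030 was on the diet labelled ad lib and monkey 1031 on the diet labelled calory restriction, with no further treatment, genotype or strain named. Each monkey gave 2 samples, numbered 1 and 2, and was its own control for a change in weight. The labels do not state when each was taken or what the animals weighed, so every change below is sample 2 minus sample 1. Each diet was 1 animal, so diet and animal cannot be told apart, and p-values measure only the spread between samples of these 2 animals, which may be technical.

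Complement is a cascade of proteases and adaptor proteins that tags particles and cells for uptake and can open pores in membranes. The classical pathway starts with C1q bound to antibody or dying cells, the lectin pathway with lectins bound to sugars, and the alternative pathway amplifies C3 once it is cleaved. All routes meet at C3, after which C5 to C9 build the membrane attack complex, while soluble and membrane-bound regulators protect host cells. The liver makes most circulating complement, and macrophages make C1q locally. A corpus luteum forms after ovulation, secretes progesterone and, when no pregnancy follows, regresses and is cleared with the help of macrophages.

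The tissue label was set beside 9 measured markers of luteal steroid-making cells. Averaged over the 4 samples, all 9 lay above the level filter described next, though CYP19A1 was only 4.41 in ad libitum sample 2. Mean log2 signal of the 9 was 11.38 and 7.70 in ad libitum samples 1 and 2 and 9.70 and 10.49 in calorie restriction samples 1 and 2. Passing the filter on average does not by itself identify the tissue of each sample. Ad libitum sample 2 stood apart from the others, with 912 to 1031 genes at least 2-fold from each other sample, against 122 to 333 between the other samples. Every change within the ad libitum animal rests on that array. In bulk tissue, fewer cells of a type and less RNA per cell cannot be told apart.

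A level filter was set at the median of the genes' mean log2 signal, 5.26, and 18 of the 32 measured members passed it. All 6 classical pathway genes and all 4 genes of C3 and the alternative pathway passed. Of the lectin starters only MASP1 passed, of the 7 terminal components only C7, and none of the 3 receptors. Among regulators, 3 of 5 measured soluble and 3 of 4 membrane-bound ones passed. CFI missed it narrowly, with a mean of 5.12, and C1QC was the member just inside, at 5.40. A probe set's brightness also depends on its probes, so these counts say which genes were tested and do not compare RNA amounts between genes or show absence.

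**Figure D1:**
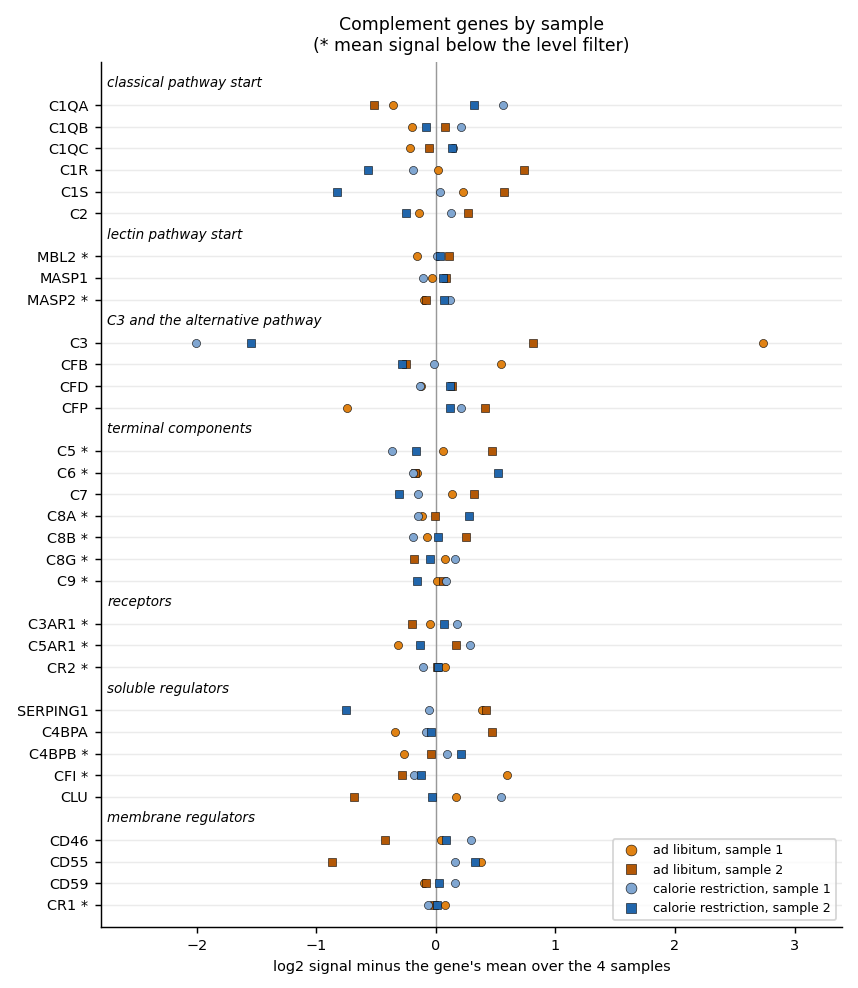
Log2 signal of each of the 32 measured complement genes in each of the 4 samples, as the deviation from that gene's mean over the samples (horizontal axis), with genes grouped by role. C3 spans the widest range, from 9.85 in ad libitum sample 1 to 5.10 in calorie restriction sample 1, while MASP1 and CD59 lie close to 0.

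C3 differed most between the diets. C3 is the protein on which all 3 pathways converge. Its log2 signal was 9.85 and 7.92 in ad libitum samples 1 and 2, and 5.10 and 5.57 in calorie restriction samples 1 and 2. The diets did not overlap, and the nearest samples were 2.36 apart on the log2 scale. Means were 8.89 ± 1.36 (SD, n = 2) and 5.33 ± 0.33 (SD, n = 2), a log2 difference of -3.55 (95% interval -5.26 to -1.84), or 11.7-fold lower under calorie restriction. Among the 9888 genes past the filter, only 3 had a larger difference in that direction, and 5 a larger one in either. Even so, limma gave C3 an adjusted p of 0.63 (Benjamini-Hochberg over those 9888 genes, unadjusted p of 0.0032), and it did not pass the test. Without ad libitum sample 1 the difference was -2.59, and without ad libitum sample 2 it was -4.51. Each of these fits leaves 1 ad libitum sample, so only the sizes are given here. C3 had 1 probe set, so no other probe set could be compared with it.

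Within the animals, C3 was 3.79-fold lower in sample 2 than in sample 1 of the ad libitum animal (log2 -1.92) and 1.38-fold higher in the calorie restriction animal (0.46). Luteal markers had the same pair of signs, with all 9 lower in the ad libitum animal (median -3.68) and 8 of 9 higher in the calorie restriction animal (median 0.77). Between the diets, none of those 9 markers separated the samples as C3 did (median 0.35 higher under calorie restriction). Their part in the C3 values was not tested.

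The other alternative pathway genes did not separate the diets. CFB encodes factor B, the protease that joins C3b to form the alternative convertase. Its log2 signal was 7.29 and 6.50 in ad libitum samples 1 and 2, and 6.74 and 6.47 in calorie restriction samples 1 and 2. Only ad libitum sample 1 stood higher, and the diet difference was -0.29 (95% interval -1.11 to 0.53, limma adjusted p = 0.94). The change in the ad libitum animal was -0.80 on this probe set but -0.01 on the other CFB probe set, whose mean of 5.23 lay just under the filter. CFD, factor D, which cleaves factor B, lay between 5.46 and 5.73 in the 4 samples and had a change of 0.26 in each animal.

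CFP encodes properdin, which stabilises the alternative convertase and is made by myeloid cells. Its log2 signal was 7.94 and 9.08 in ad libitum samples 1 and 2, and 8.89 and 8.80 in calorie restriction samples 1 and 2. Ad libitum sample 1 was the low one, so that CFP was 2.21-fold higher in that animal's sample 2 (1.15) and nearly level in the calorie restriction animal (-0.10). The diet difference was 0.33 (95% interval -0.74 to 1.41, limma adjusted p = 0.95). Among 12 measured macrophage markers, 9 were higher and 3 lower in ad libitum sample 2. CYBB (1.65), AIF1 (1.23) and FCER1G (1.05), genes of myeloid cells, were at least 2-fold higher there. By contrast, the scavenger receptor gene CD163 (-1.28) and LYVE1 (-1.10) were at least 2-fold lower. The mean log2 signal of the macrophage list was 7.31 and 7.57 in the ad libitum animal and 7.77 and 7.73 in the calorie restriction animal. The part of these cells in the CFP values was not tested.

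**Figure D2:**
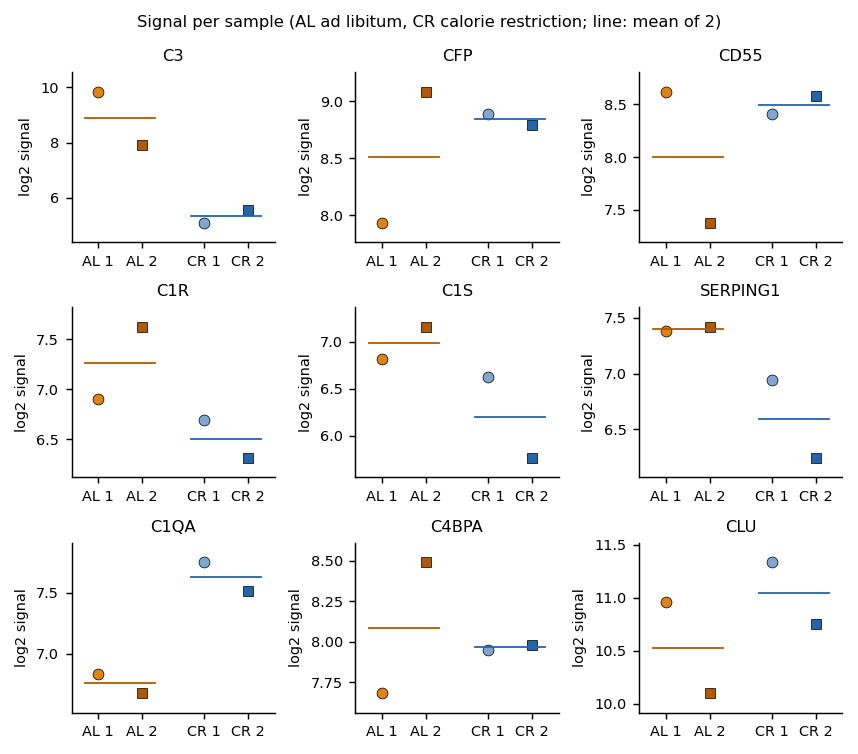
Log2 signal (vertical axes, each with its own range) in each sample for 9 complement genes, with AL for ad libitum, CR for calorie restriction and a line at the mean of the 2 samples. C3, C1R, C1S and SERPING1 lie lower in both calorie restriction samples, C1QA lies higher in both, and CD55 is low in ad libitum sample 2 alone (7.38).

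In the classical pathway, the proteases C1R and C1S and their inhibitor SERPING1 were lower in both calorie restriction samples than in both ad libitum samples. C1r activates C1s, which cleaves C4 and C2, and C1 inhibitor, the product of SERPING1, blocks both proteases. C1R had a log2 signal of 6.90 and 7.62 in ad libitum samples 1 and 2, and 6.70 and 6.32 in calorie restriction samples 1 and 2. C1S was 6.82 and 7.16 in the former and 6.63 and 5.76 in the latter. SERPING1 was 7.39 and 7.42 in the former and 6.94 and 6.24 in the latter. In all 3 genes calorie restriction sample 2 was the lowest of the 4 samples.

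The diet differences were -0.76 for C1R (1.69-fold, 95% interval -1.56 to 0.05), -0.79 for C1S (1.73-fold, -1.68 to 0.09) and -0.81 for SERPING1 (1.76-fold, -1.54 to -0.08). The limma adjusted p was 0.88 for each, so none passed the test. Without calorie restriction sample 2 the differences were smaller, at -0.57 for C1R, -0.36 for C1S and -0.46 for SERPING1, and without ad libitum sample 2 that of C1R was -0.40. Within the calorie restriction animal the 3 genes had changes of -0.38, -0.87 and -0.70, against 0.72, 0.34 and 0.03 in the ad libitum animal. A second probe set of C1S, below the level filter, had a diet difference of -0.33. Its within-animal changes were 0.11 (ad libitum) and -0.12 (calorie restriction), so the 1.82-fold change of C1S under calorie restriction was not seen on it.

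The C1q chains, which assemble together into the recognition molecule of the pathway, did not share 1 pattern. C1QA had a log2 signal of 6.83 and 6.67 in ad libitum samples 1 and 2, and 7.75 and 7.51 in calorie restriction samples 1 and 2. It was thus higher in both calorie restriction samples, by 0.88 (1.84-fold, 95% interval 0.37 to 1.39), with a limma adjusted p of 0.71. C1QC was 5.19 and 5.35 in the ad libitum samples and 5.55 and 5.54 in the calorie restriction samples. Its difference of 0.28 (95% interval -0.12 to 0.67) had a limma adjusted p of 0.91.

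C1QB overlapped between the diets, at 8.94 and 9.22 in the ad libitum samples and 9.35 and 9.06 in the calorie restriction samples. Its diet difference was 0.13 (95% interval -0.47 to 0.72, limma adjusted p = 0.96). Macrophage markers beside them had a median diet difference of 0.06, and 4 of the 12 (CD163, CD14, MRC1 and LYVE1) were higher in both calorie restriction samples, with none lower in both. Over all measured genes, 18.3% were higher in both, and 35.9% did not overlap in either direction. The part of macrophages in the C1QA values was not tested.

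C2, which supplies the protease of the classical and lectin convertase, was 6.44 and 6.85 in the ad libitum samples and 6.70 and 6.33 in the calorie restriction samples. The diets overlapped, with a difference of -0.12 (95% interval -0.75 to 0.50, limma adjusted p = 0.97). Considered together, 5 of the 6 classical genes had a positive change in the ad libitum animal (median 0.31) and all 6 a negative one in the calorie restriction animal (median -0.33). The second count includes C1QC, which was nearly level at -0.005. Medians over all 9888 genes past the filter were -0.01 and -0.03. Of those genes, 4799 were higher in ad libitum sample 2 than in sample 1, and 5368 were lower in calorie restriction sample 2. Among the 6 classical genes, only C1R in the first animal and C1S in the second reached 1.5-fold, and no replicate of either change exists.

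On their brightest probe sets, lectin pathway starters were nearly level. MASP1, a protease that circulates with lectins, had a log2 signal between 5.84 and 6.03 in the 4 samples, and its diet difference was -0.05 (95% interval -0.48 to 0.39, limma adjusted p = 0.98). MASP2, the protease that cleaves C4 and C2, and MBL2, mannose-binding lectin, lay below the filter. Their changes ran from 0.01 to 0.27 in the ad libitum animal and from -0.05 to 0.02 in the calorie restriction animal. Other probe sets of the proteases, all below the filter, were not all level. In the ad libitum and calorie restriction animals, 1 of MASP1 had -0.64 and 0.56 and 1 of MASP2 had -0.51 and 0.46. The rest had smaller changes.

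C7 was the one terminal component past the filter. C7 joins C5b and C6 and anchors the growing attack complex in the membrane. Its log2 signal was 9.07 and 9.25 in ad libitum samples 1 and 2, and 8.79 and 8.63 in calorie restriction samples 1 and 2. Both calorie restriction samples were lower, by 0.45 on average (log2 difference -0.45, 95% interval -0.98 to 0.07), with a limma adjusted p of 0.88. Its other probe set, below the filter, had a difference of 0.05.

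The remaining 6 terminal genes lay below the filter in mean signal and were not tested. C5, the precursor of the anaphylatoxin C5a, was 3.53 and 3.95 in the ad libitum samples and 3.11 and 3.31 in the calorie restriction samples. C6, which binds C5b, was 3.49, 3.48 and 3.46 in the first 3 samples and 4.17 in calorie restriction sample 2, a change of 0.71 in that animal. C8A, C8B, C8G and C9, which encode the later subunits, had no change beyond 0.43 in either animal.

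The receptors also lay below the filter. C3AR1 and C5AR1, receptors for the anaphylatoxins, had diet differences of 0.25 and 0.15, and CR2, the C3d receptor of B cells and follicular dendritic cells, had -0.09. C5AR1 was 2.95 and 3.43 in the ad libitum samples and 3.54 and 3.13 in the calorie restriction samples. The diets overlapped for C5AR1 and CR2 but not for C3AR1, whose samples lay at 4.39 and 4.24 against 4.62 and 4.51.

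Among soluble regulators, CLU was lower in sample 2 of both animals. CLU encodes clusterin, which binds the forming attack complex and also acts as an extracellular chaperone. Its log2 signal was 10.96 and 10.10 in ad libitum samples 1 and 2, and 11.33 and 10.75 in calorie restriction samples 1 and 2. The changes were -0.86 and -0.58, or 1.81-fold and 1.49-fold lower. All 3 CLU probe sets past the filter had negative changes in both animals, from -0.88 to -0.29 in the ad libitum and from -0.68 to -0.25 in the calorie restriction animal. The diet difference of 0.51 (95% interval -0.47 to 1.5, limma adjusted p = 0.92) did not have 1 sign over those probe sets, which ran from -0.09 to 0.51.

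C4BPA encodes the alpha chain of C4b-binding protein, which takes apart the classical convertase. It was 7.68 and 8.49 in ad libitum samples 1 and 2, and 7.95 and 7.98 in calorie restriction samples 1 and 2. Only the ad libitum animal's samples were apart, by 0.81 (1.75-fold), and the diet difference was -0.12 (95% interval -0.95 to 0.70, limma adjusted p = 0.98). C4BPB, the beta chain gene, lay below the filter with changes of 0.23 and 0.12.

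CFI encodes factor I, the protease that cuts C3b and C4b with the help of cofactors. It was 5.71 and 4.83 in ad libitum samples 1 and 2, and 4.94 and 4.99 in calorie restriction samples 1 and 2. Ad libitum sample 1 was the high one, 1.84-fold above sample 2 (-0.88), and a second probe set of CFI gave -1.01 there and -0.04 in the calorie restriction animal. Both probe sets lay below the filter.

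Of the membrane regulators, CD55 was at least 2-fold lower in 1 sample. CD55, or decay-accelerating factor, speeds the breakdown of C3 convertases on the cell's own surface. Its log2 signal was 8.62 and 7.38 in ad libitum samples 1 and 2, and 8.41 and 8.58 in calorie restriction samples 1 and 2. Ad libitum sample 2 lay below the other samples, 2.37-fold lower than sample 1 (-1.24), while the change in the calorie restriction animal was 0.17. The 3 probe sets of CD55 past the filter ran from -1.76 to -0.45 in the ad libitum animal and from 0.11 to 0.17 in the other, so they differed in size but not in sign. The diet difference was 0.49 (95% interval -0.66 to 1.64, limma adjusted p = 0.94).

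CD46, a cofactor for factor I, was 6.95 and 6.48 in ad libitum samples 1 and 2, and 7.20 and 6.99 in calorie restriction samples 1 and 2. Its diets did not overlap, though the nearest samples were only 0.04 apart, and the difference was 0.38 (95% interval -0.23 to 0.99, limma adjusted p = 0.92). CD59, which blocks the last step of the attack complex, was steady on its brightest probe set, at 9.57 and 9.59 in the ad libitum samples and 9.83 and 9.70 in the calorie restriction samples. Its difference was 0.18 (95% interval -0.32 to 0.69, limma adjusted p = 0.94). Over the 3 CD59 probe sets past the filter the diet difference ran from 0.18 to 0.51, and changes within the animals did not have 1 sign. CR1, the C3b and C4b receptor, lay below the filter between 4.23 and 4.37.

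Components and regulators were then set side by side between the diets. Of 9888 genes tested, 0 (0%) had a limma adjusted p under 0.05, and so none of the 18 tested members did. At an unadjusted p under 0.05, limma called 3 members (C3, C1QA and SERPING1) and 522 genes, or 5.28% of those tested. The median diet difference was -0.03 over 20 components and 0.18 over 9 measured regulators, whether past the filter or not. It was 0.003 over all measured genes and -0.01 over those past the filter. By role, it was 0.00 for classical, 0.04 for lectin, -0.15 for C3 and alternative, and -0.07 for terminal genes. Soluble regulators had -0.12, membrane regulators 0.28 and receptors 0.15.

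At 2-fold or more between the diets, C3 was the only 1 of 32 members (3.12%), where 2.46% of all measured genes were so. That was 5.56% of the 18 members past the filter, against 3.77% of genes past it. At 1.5-fold, C1QA was higher and C3, C1R, C1S and SERPING1 were lower under calorie restriction, 5 of 32 members (15.6%) against 7.01% of all measured genes. All 5 passed the filter, 27.8% of the 18 members past it against 10.5% of genes past it. The diets' samples did not overlap for 13 members (40.6%), 7 of them higher and 6 lower under calorie restriction. That share was 35.9% over all measured genes.

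**Figure D3:**
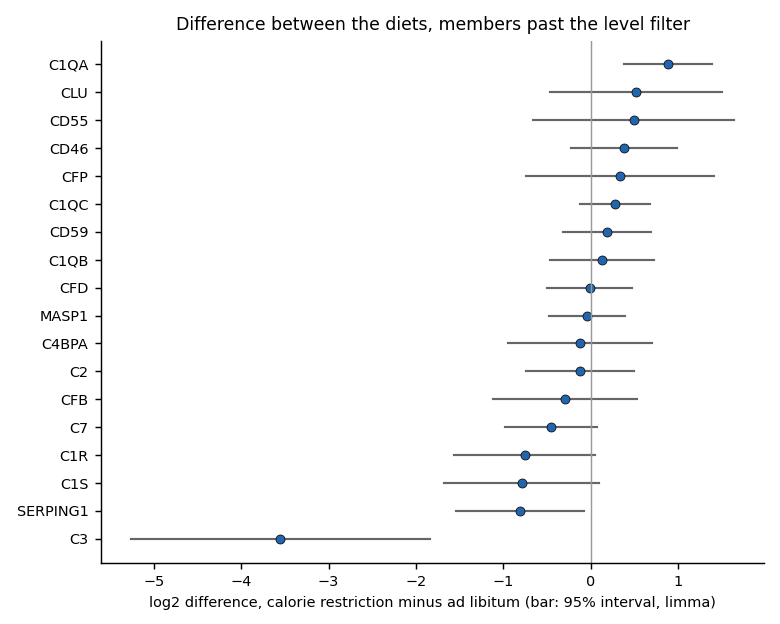
Difference between the diets (log2, calorie restriction minus ad libitum, horizontal axis) with its 95% interval from limma for each of the 18 complement genes past the level filter. C3 lies at -3.55, far from the other genes, and only the intervals of C3, SERPING1 and C1QA leave out 0.

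Within the animals, 3 of 32 members were at least 2-fold apart in the ad libitum animal (9.38%), C3 and CD55 lower and CFP higher, where 5.79% of all measured genes were. These 3 were 16.7% of the 18 members past the filter, against 9.25% of genes past it. In the calorie restriction animal 0 members were, against 0.799% of all measured genes and 1.23% of those past the filter. At 1.5-fold the ad libitum animal had 8 of 32 members (25%) against 16.3% of all measured genes, and 7 of the 18 members past the filter (38.9%) against 24.8% of genes past it. The calorie restriction animal had 3 of 32 (9.38%) against 4.27%, and 2 of 18 (11.1%) against 5.95%. C1R, C4BPA and CFP were higher and C3, CFB (on 1 of its 2 probe sets), CFI, CD55 and CLU lower in the former, and C6 was higher and C1S (on 1 of its 2 probe sets) and SERPING1 lower in the latter. On the probe sets used, no member reached 1.5-fold in both animals. CLU came closest, at 1.81-fold and 1.49-fold lower. Another CLU probe set past the filter did reach it, at -0.88 and -0.68, and a further one did not, at -0.29 and -0.25.

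The median change was 0.17 over the components and -0.09 over the regulators in the ad libitum animal, and -0.07 and 0.03 in the calorie restriction animal. In the ad libitum animal the medians of the membrane regulators (-0.28) and of C3 and the alternative pathway (-0.27) lay below those of the other roles, over 4 genes each. The latter group was split, with C3 (-1.92) and CFB (-0.80) lower and CFD (0.26) and CFP (1.15) higher. Its median rests on CFB and CFD, and the other CFB probe set, just under the filter, had -0.01. These changes have 1 array on each side and no test, and a fit of the difference between the animals' changes leaves no residual degrees of freedom.

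**Figure D4:**
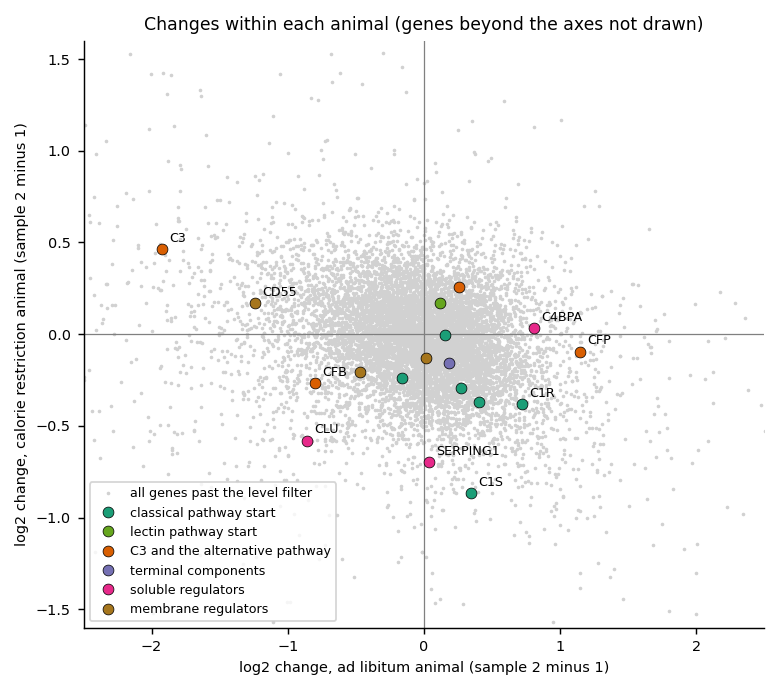
Log2 change from sample 1 to sample 2 in the ad libitum animal (horizontal axis) and in the calorie restriction animal (vertical axis) for the 18 complement genes past the level filter, coloured by role, over all genes past the filter in grey. C3 (-1.92 and 0.46) and CD55 (-1.24 and 0.17) lie to the upper left, and C1R (0.72 and -0.38) and C1S (0.34 and -0.87) to the lower right.

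Several members are neighbours in the genome. In the RefSeq annotation of the vervet assembly mChlSab1.0.hap1, 31 of the 33 members were found by symbol. C1R and C1S were not found, so whether they are neighbours was not checked. The arrays' own build is not given in the sources used here. C1QA and C1QC, C1QB and C1QC, C2 and CFB, C8A and C8B, C4BPA and C4BPB, CD55 and CR2, CR2 and CR1, and CR1 and CD46 were adjacent among protein-coding genes. Neighbours did not share values throughout. C2 and CFB had changes of 0.41 and -0.80 in the ad libitum animal, though the other CFB probe set, just under the filter, had -0.01. C4BPA and CD55, which have 1 coding gene between them, had 0.81 and -1.24 in that animal.

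Other genes of the pathway were taken from a list of 31, of which 25 had a probe set of their own and 10 passed the filter. None passed the test between the diets (lowest limma adjusted p = 0.83), and their median difference was 0.12. Those past the filter and 2-fold apart were CD93, THBD and CALR. CD93, a receptor of endothelial and myeloid cells first described for C1q, was 9.24 and 7.56 in ad libitum samples 1 and 2, and 9.80 and 9.32 in calorie restriction samples 1 and 2. It was 3.20-fold lower in ad libitum sample 2 (-1.68) and 2.24-fold higher under calorie restriction (1.16, limma adjusted p = 0.91).

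THBD encodes thrombomodulin, an endothelial protein that also curbs complement. It was 7.78 and 6.83 in the ad libitum samples and 9.07 and 8.09 in the calorie restriction samples, 2.42-fold higher in the latter (1.27, limma adjusted p = 0.88). CALR, an endoplasmic reticulum chaperone that can bind C1q, was 2.16-fold lower in ad libitum sample 2 (-1.11). Among 9 endothelial markers, all were lower in ad libitum sample 2 (median -0.85) and 8 were higher under calorie restriction (median 0.87). Their mean log2 signal was 7.47 and 6.50 in the ad libitum and 7.99 and 7.63 in the calorie restriction animal, and their part in the CD93 and THBD values was not tested.

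PTX3, a pentraxin that binds C1q, was chosen after its values were seen, since its mean lay just under the filter. It was 8.36 in ad libitum sample 1 and 3.47 in sample 2, and 4.66 and 4.37 in the calorie restriction samples. Its signal was thus high in 1 sample alone, a change of -4.88 in the ad libitum animal. In all, 0 of the 25 were 2-fold higher and 3 lower in the ad libitum animal, with PTX3 among those 3. None of the 25 was 2-fold apart in the calorie restriction animal, and their median changes were -0.14 (ad libitum) and -0.05 (calorie restriction). Over all measured genes, 5.79% were 2-fold apart in the first animal and 0.799% in the second.

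**Figure D5:**
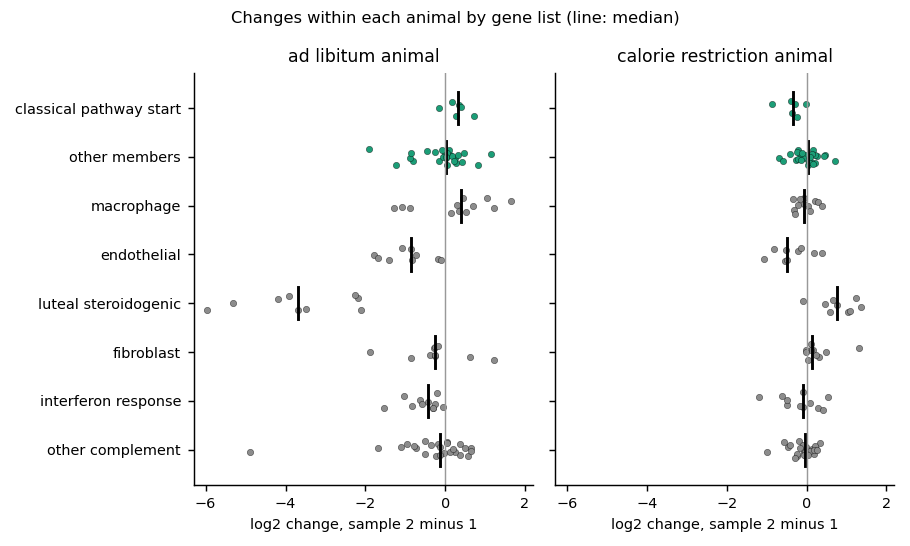
Log2 change from sample 1 to sample 2 (horizontal axis) in each animal for the classical pathway genes, the other complement genes of the set and 6 comparison lists, with a line at each list's median. Luteal markers lie far lower in the ad libitum animal (median -3.68), beside a median of 0.31 for the classical pathway genes.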

How the data were processed

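Total RNA of 4 corpus luteum samples was labelled with biotin and hybridised, 1 array per sample. Deposited values, on the log2 scale and 1 per probe set, were made by the authors with Affymetrix Power Tools and RMA, per the submitters' processing notes. The genome build is not given in the sources used here, nor are versions. Probe sets were annotated to human genes, and how well they match vervet sequence was not tested. Of 54675 probe sets, 41091 with 1 gene symbol were kept, 1801 had several, and 62 controls were left out.

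Genes under the median mean log2 signal of 5.26 were left out of the fit. Diets were compared with limma 3.58.1 (lmFit, and eBayes with a trend) in R 4.3.3, with Benjamini-Hochberg adjustment at 0.05 and 2 residual degrees of freedom. The fit was tried on simulated independent samples with 1 spread for all genes and samples. These arrays differ from that, so it does not check the design here. Changes within an animal were called at 2-fold and have no test. All members were reported. A member past the filter and 1.5-fold apart, or one its role turned on, got its values by sample, and other pathway genes were named where past the filter and 2-fold apart. Members and lists were chosen with earlier results of these data known. Alternatives changed the filter, normalisation, probe set rule, trend, block, fold and samples. The number of arrays limits the precision.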

Additional observations from a re-analysis of the deposited data

Results flagged for a closer look

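For 4 members past the level filter the 2 animals' changes (sample 2 minus sample 1) had opposite signs and were at least 1.25-fold in each, which held for 10.3% of all genes past the filter. C1R had a change of 0.72 in the ad libitum animal and of -0.38 in the calorie restriction animal on the log2 scale. C1S had values of 0.34 and -0.87, and C2 of 0.41 and -0.37. C3 had the opposite pair, -1.92 and 0.46. The difference between the animals was not tested, since each change has 1 array on each side.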

How the results depend on the processing

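The fit between the diets called 0 of 9888 genes and 0 members, and the same counts came from 12 of 13 alternatives. The exception left out ad libitum sample 1. With each sample left out in turn the calls ranged from 0 to 474 genes and from 0 to 1 member, that member being C3. With 1 sample left out, the lone sample is assumed to vary like the other diet's. C3 has 1 probe set and its diets did not overlap, so alternatives other than normalisation could not change its sign. Its log2 difference was -3.53 with quantile normalisation repeated and -3.55 with cyclic loess (limma adjusted p of 0.49 and 0.62). With 1 sample left out it ran from -4.51 to -2.59. Calling changes at 1.5-fold in place of 2-fold, among members past the filter, gave 3 higher and 4 lower in the ad libitum animal in place of 1 and 2, and 2 lower in the calorie restriction animal in place of 0. None of the values examined changed sign, though many alternatives could not change it for genes with 1 probe set or without overlap. C1S came under the filter when less specific probe sets were left out. Sample numbers are shared by the diets but do not pair the animals: same-numbered samples deviated with a correlation of -0.27 across genes. With sample number as a replicate block, 0 members and 0 genes passed, and with the crossed pairing, chosen after seeing the data, again 0 and 0.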

Other observations

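Genes that respond to interferon were counted beside the members. Of 11 measured, 7 were higher in both calorie restriction samples than in both ad libitum samples, with a median diet difference of 0.50, where 18.3% of all measured genes and 16.6% of those past the filter were so. All 11 were lower in ad libitum sample 2 than in sample 1 (median -0.42). Their part in the complement values was not tested. Plasma proteins made by the liver were mostly below the level filter, with 2 of 12 past it. ALB lay between 2.43 and 2.95 in the 4 samples, whereas APOA1 lay between 9.79 and 11.43 and had a change of -1.64 in the ad libitum animal. Neutrophil markers passed it in 1 of 10 and B cell markers in 2 of 6. FBLN1, a matrix gene of the fibroblast list, was 6.63 and 7.85 in the ad libitum samples and 5.21 and 5.20 in the calorie restriction samples, the only fibroblast marker 2-fold apart between the diets. T and NK cell markers had a median diet difference of 0.00 and red blood cell and platelet markers of 0.69. Of 8 smooth muscle and pericyte markers, 5 were lower and 3 higher in both calorie restriction samples. Over all measured genes, the diets' samples did not overlap for 35.9%. The 3 higher markers were RGS5 (1.31), CSPG4 (0.58, below the level filter) and PDGFRB (0.38), which are pericyte genes.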
